A study of Mus musculus with 6 samples.

Results

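Tetraspanins are small proteins that cross the membrane 4 times and gather other membrane proteins, such as integrins, proteases and immune receptors, into shared patches of the cell surface and of endosomes. The 10 tetraspanin genes described here, *Cd9*, *Cd37*, *Cd53*, *Cd63*, *Cd81*, *Cd82*, *Cd151*, *Tspan3*, *Tspan4* and *Tspan14*, were chosen by name from the 22248 genes listed for bone-marrow-derived macrophages (BMDMs) with and without CITED2, a transcriptional co-regulator. In macrophages these proteins are known for roles in adhesion, cell fusion, antigen presentation, vesicle release and the handling of fungal receptors. *Cd9* and *Cd81* are close relatives, *Cd37* and *Cd53* are largely restricted to blood cells, *Cd63* marks late endosomes and released vesicles, and *Tspan14* belongs to the TspanC8 tetraspanins that escort the protease ADAM10 out of the endoplasmic reticulum.

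The control group was 3 libraries from *Lyz2* Cre mice, and the CITED2-deficient group was 3 libraries from mice that carry *Lyz2* Cre and *Cited2* Fl/Fl alleles. All mice were C57BL/6, labelled as postnatal week 10, and the BMDMs were grown in macrophage colony-stimulating factor and left unstimulated. The Cre is driven by the myeloid *Lyz2* locus in both genotypes, and neither a group without Cre nor floxed alleles without Cre were measured. An effect of Cre or of its place in *Lyz2*, whose listed level differed between the groups as given below, was not tested. The design text gives 3 mice, and no label ties a library to an animal, so p-values measure the spread between these libraries. *Cited2*, the deleted gene, stood at 71.7, 79.3 and 75.5 FPKM (fragments per kilobase of transcript, scaled to library depth) in control BMDMs and at 9.27, 7.22 and 7.53 FPKM in CITED2-deficient BMDMs, a log2 fold change of -3.09 (SE 0.082).

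The 6 libraries held 17289286 to 18952077 fragments in the control group and 22583995 to 26100410 in the CITED2-deficient group, so the deficient group was sequenced 1.34 times as deeply. Each of the 10 genes was covered by 1202 to 16863 fragments in every library. The macrophage markers *Adgre1* (1748 to 2234 FPKM) and *Csf1r* (906 to 1146 FPKM) were high throughout, although *Lyz2* itself was listed at only 30.6 to 32.5 FPKM in control and 9.39 to 10.0 FPKM in CITED2-deficient BMDMs. Of 8 macrophage markers, 1 rose and 5 fell (3 and 5 after median-ratio scaling), where 16.7% of all tested genes rose and 34.6% fell, and their summed level went from 5624 to 5694 FPKM in control to 5287 to 5367 FPKM in CITED2-deficient libraries. Of 8 fibroblast markers, 6 could be tested and all 6 rose. The sum of the 8 was 42.4 to 50.6 FPKM in control libraries. It was 540.4 FPKM in CITED2-deficient replicate 1 and 170.4 and 171 FPKM in the remaining CITED2-deficient libraries. Most of this sum was *Col1a1* and *Col1a2*. Granulocyte markers fell in 5 of 6 tested (sum 635 to 703 against 496 to 592 FPKM). Among platelet markers, 2 of 3 tested rose, but the sum fell from 314 to 343 FPKM down to 78.4 to 89.7 FPKM, nearly all of it *Pf4*. Of 3 tested endothelial markers, 2 rose (sum 5.75 to 6.04 against 27.0 to 32.3 FPKM, mainly *Kdr*). Of 2 tested B cell markers, 1 rose, and the 1 tested mast cell and basophil marker did not pass. T cell, NK cell, erythroid and dendritic cell markers were all below the filter, with sums of at most 4.30 FPKM for any of these last 6 lists. Several tetraspanins are also expressed by fibroblasts, granulocytes and platelets, and the part of such cells in the results below was not tested. In these bulk samples, fewer cells of a type and less RNA per cell cannot be told apart.

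Windows of 250 bases before the RefSeq start of each gene (GRCm38.p6) are shown first for the gene with the largest fall, for another gene that fell, and for the 2 genes that rose, since these carry the contrast described below. The *Cd81* window lies at chr7:143052500-143052749 on the plus strand, *Tspan3* at chr9:56161071-56161320 on the minus strand, *Cd9* at chr6:125494761-125495010 on the minus strand and *Cd53* at chr3:106790150-106790399 on the minus strand. Each is written 5′ to 3′ on the gene's strand, and capitals mark GGGCGG (the GC box) or GAGGAA (the core bound by the myeloid factor PU.1) on either strand.
Cd81: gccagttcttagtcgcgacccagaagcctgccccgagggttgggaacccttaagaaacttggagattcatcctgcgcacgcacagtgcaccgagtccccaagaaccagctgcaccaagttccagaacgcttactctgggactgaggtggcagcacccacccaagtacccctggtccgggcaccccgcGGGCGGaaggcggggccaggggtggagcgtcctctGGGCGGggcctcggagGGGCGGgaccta
Tspan3: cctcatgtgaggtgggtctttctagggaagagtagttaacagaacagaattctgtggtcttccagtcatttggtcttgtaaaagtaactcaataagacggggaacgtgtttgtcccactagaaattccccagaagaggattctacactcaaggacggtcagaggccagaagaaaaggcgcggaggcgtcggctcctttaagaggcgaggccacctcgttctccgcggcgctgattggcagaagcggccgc
Cd9: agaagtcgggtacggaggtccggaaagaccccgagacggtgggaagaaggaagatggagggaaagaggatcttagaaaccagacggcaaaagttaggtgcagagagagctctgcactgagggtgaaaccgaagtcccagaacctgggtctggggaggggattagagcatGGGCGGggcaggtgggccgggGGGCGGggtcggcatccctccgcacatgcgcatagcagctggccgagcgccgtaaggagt
Cd53: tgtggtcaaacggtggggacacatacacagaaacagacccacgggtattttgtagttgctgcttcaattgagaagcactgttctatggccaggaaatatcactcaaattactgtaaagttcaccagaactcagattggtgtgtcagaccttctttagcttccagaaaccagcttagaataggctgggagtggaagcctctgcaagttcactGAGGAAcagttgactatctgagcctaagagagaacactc

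The windows of *Cd9* and *Cd53*, the 2 genes that rose, differed in base composition and in motifs. *Cd81* held 3 GC boxes at 63, 28 and 12 bases before the start, with 65.6% GC and 16 CpG dinucleotides, and *Cd9* held 2 GC boxes, with 61.6% GC and 16 CpG. *Cd53* held no GC box and 1 PU.1 core at 39 bases before the start, with 45.2% GC and 2 CpG, and *Tspan3* held neither motif, with 52.4% GC and 14 CpG. Over 32851 promoter windows of the same length, 32.7% held a GC box and 23.3% a PU.1 core, and the median window had 52.4% GC and 6 CpG. In all, 4 motifs were searched on both strands, chosen after the expression values were known, in the 16 windows of the 10 genes, some of which have several start sites. The GC box was in 8 windows of 7 genes (*Cd9*, *Cd37*, *Cd81*, *Cd82*, *Cd151*, *Tspan4* and *Tspan14*). The PU.1 core was in 6 windows of 5 genes (*Cd37*, *Cd53*, *Cd63*, *Cd82* and *Tspan14*), of which only *Cd53* rose. The CCAAT box, written CCAAT and present in 33.8% of all windows, was in 3 windows (*Cd53*, *Cd82* and *Tspan3*). The core of the interferon-stimulated response element, present in 2.98% of all windows, was in 0 of the 16, which says only that its letters are not in these windows. The capitals above do not mark these last motifs. A match is a description of the letters and not a binding site.

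In CITED2-deficient BMDMs, 7 of the 10 tetraspanins fell, 2 rose, and *Cd151* did not pass the test (limma on log2(FPKM + 1), Benjamini-Hochberg adjusted over 11687 genes, threshold 0.05). Over all tested genes 51.3% passed, 16.7% higher and 34.6% lower, so passing the test was common. The median log2 fold change was -0.22 for the 10 tetraspanins and -0.10 for all tested genes. After median-ratio scaling, which centres the libraries on their typical gene and passed 44.4% of genes, 23.1% as higher and 21.3% as lower, 5 of the tetraspanins fell, 2 rose and 3 did not pass, with a median of -0.11 for the 10 against -0.0069 for all genes. Among those averaging 5 FPKM or more, where 57.2% of genes passed (17.3% higher and 40.0% lower), the counts for the 10 were again 7 lower and 2 higher. Only *Cd81* changed by at least 2 fold, and a fall of at least 2 fold past the threshold was seen in 1.54% of all tested genes. In 9 of the 10 genes the 3 control and 3 deficient values did not overlap, 7 lower and 2 higher, as was the case for 59.9% of all tested genes (40.9% lower and 19.0% higher).

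**Figure D1:**
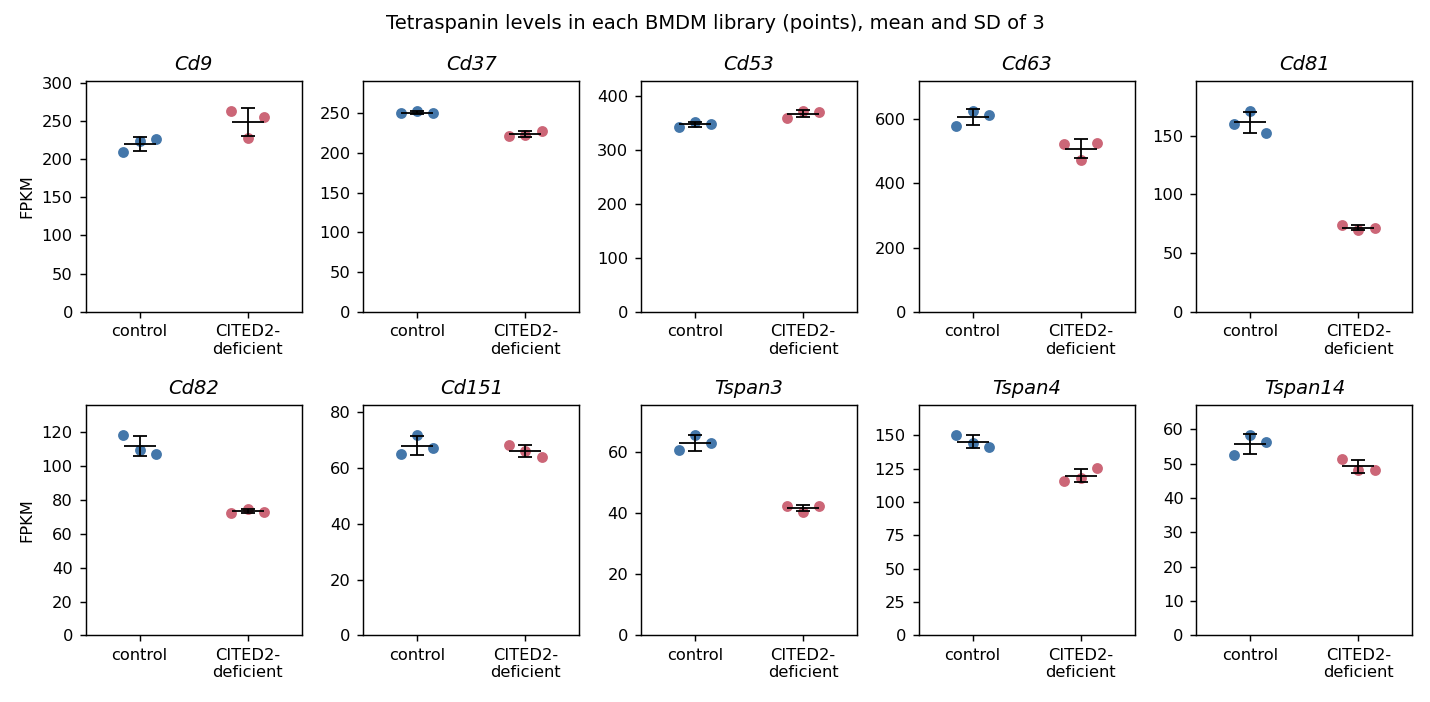
FPKM (y axis, from 0) of each tetraspanin in the 3 control and 3 CITED2-deficient BMDM libraries, with points for libraries and black bars for the mean and SD. *Cd81* went from 153 to 171 FPKM down to 70.0 to 73.8 FPKM, while the 2 groups of *Cd151* overlap.

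*Cd81*, a partner of the immunoglobulin-like protein IGSF8 in many cells, showed the largest change of the 10. Its level (ENSMUSG00000037706, mm10 chromosome 7, 143052739 to 143067934, plus strand) was 160.2, 171 and 153 FPKM in control BMDMs and 73.8, 70.0 and 71.3 FPKM in CITED2-deficient BMDMs. Every deficient library was below every control library, and the gap was wide against the spread within either group. The mean fell from 161 ± 9.19 to 71.7 ± 1.94 FPKM (SD, n = 3 each), a fall of 55.6%, with a log2 fold change of -1.16 (SE 0.044, 95% interval -1.26 to -1.06, adjusted p = 6.68e-08, limma). Recovered fragments also fell, from 2839 to 2971 per control library to 1551 to 1840 per deficient library, although the deficient libraries were deeper. Of all 11687 tested genes, 120 (1.03%) had a lower log2 fold change.

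*Cd82*, known for restraining cell migration and for meeting class II antigen-presenting molecules in endosomes, fell by about as much as *Tspan3*. It (ENSMUSG00000027215, chromosome 2, 93419111 to 93463140, minus strand) stood at 118, 109 and 107 FPKM in control BMDMs and at 72.3, 74.6 and 72.9 FPKM in CITED2-deficient BMDMs. The deficient libraries were nearly level with one another and all below the controls. The log2 fold change was -0.60 (SE 0.042, adjusted p = 3.84e-06, limma), from 112 ± 6.00 to 73.3 ± 1.19 FPKM (SD, n = 3 each).

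*Tspan3*, a broadly expressed tetraspanin (ENSMUSG00000032324, chromosome 9, 56131725 to 56165477, minus strand), was at 60.5, 65.5 and 62.8 FPKM in control BMDMs and at 42.2, 40.4 and 42.2 FPKM in CITED2-deficient BMDMs. The groups lay well apart. The mean went from 62.9 ± 2.53 to 41.6 ± 1.07 FPKM (SD, n = 3 each), and its log2 change was -0.58 (SE 0.042, adjusted p = 4.44e-06, limma), close to that of *Cd82*. *Cd82* and *Tspan3* were each other's nearest profile among 17 candidate tetraspanins. The root mean square difference was 0.079 in centred log2(FPKM + 1) over the 6 libraries. This measure includes the difference between the groups, so it restates their similar falls and is not separate evidence.

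*Tspan4* and *Cd63* fell by smaller amounts. *Tspan4*, known for the migrasomes that migrating cells leave behind (ENSMUSG00000025511, chromosome 7, 141475240 to 141493427, plus strand), was at 150.3, 144 and 141 FPKM in control BMDMs and at 116, 118 and 125 FPKM in CITED2-deficient BMDMs. The log2 fold change was -0.28 (SE 0.039, adjusted p = 0.000367, limma), and the groups did not overlap. *Cd63*, the tetraspanin of late endosomes, lysosomes and exosomes (ENSMUSG00000025351, chromosome 10, 128900989 to 128912822, plus strand), was at 579, 625 and 614 FPKM in control BMDMs and at 524, 474 and 526 FPKM in CITED2-deficient BMDMs. Its groups were separate as well, with a wider spread than those of *Tspan4*, and the log2 fold change was -0.26 (SE 0.046, adjusted p = 0.0016, limma). After median-ratio scaling both genes still fell, by 0.17 (adjusted p = 0.0069) and by 0.15 (adjusted p = 0.0264) on the log2 scale.

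The falls of *Cd37* and *Tspan14* depended on how the libraries were scaled. *Cd37*, a leukocyte tetraspanin that associates with the fungal receptor Dectin-1 (ENSMUSG00000030798, chromosome 7, 45233632 to 45239115, minus strand), was at 250.1, 253 and 250.2 FPKM in control BMDMs and at 221, 223 and 228 FPKM in CITED2-deficient BMDMs. These values were tight within each group and separate between them, giving a log2 fold change of -0.16 (SE 0.026, adjusted p = 0.000815, limma). After median-ratio scaling the difference was -0.060 (adjusted p = 0.123). *Tspan14* (ENSMUSG00000037824, chromosome 14, 40906445 to 40966807, minus strand) was at 52.7, 58.4 and 56.2 FPKM in control BMDMs and at 51.5, 48.1 and 48.1 FPKM in CITED2-deficient BMDMs. The lowest control library and the highest deficient library lay only just apart. Its log2 fold change was -0.18 (SE 0.049, adjusted p = 0.0142, limma), and it was -0.074 after median-ratio scaling (adjusted p = 0.258), with the call also lost under quantile normalization (adjusted p = 0.0602), without control replicate 2 (adjusted p = 0.0502) and without CITED2-deficient replicate 3 (adjusted p = 0.0509).

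*Cd9* and *Cd53* were the 2 genes that rose, both by less than 1.5 fold. *Cd9*, which is known to hold back macrophage fusion (ENSMUSG00000030342, chromosome 6, 125460266 to 125494791, minus strand), was at 209, 224 and 226 FPKM in control BMDMs and at 263, 227 and 254 FPKM in CITED2-deficient BMDMs. CITED2-deficient replicate 2 lay barely above the highest control, while replicates 1 and 3 were clearly higher. The log2 fold change was 0.17 (SE 0.054, adjusted p = 0.0248, limma) and 0.28 after median-ratio scaling (adjusted p = 0.0024). *Cd9* is among the genes that the study picked for display from these libraries, so its direction is not independent evidence.

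The *Cd9* call was lost in 3 of the fits that left out a library: without control replicate 1 (0.14, adjusted p = 0.0869), without CITED2-deficient replicate 1 (0.13, adjusted p = 0.0758) and without CITED2-deficient replicate 3 (0.15, adjusted p = 0.0831). CITED2-deficient replicate 1 had both the highest *Cd9* level and the highest fibroblast marker sum. *Cd9* was at 227 and 254 FPKM in the remaining deficient libraries. The sum was mostly collagen genes, with *Col1a1* at 305 FPKM in replicate 1 against 62.0 and 62.6 FPKM in those libraries. Other fibroblast markers set replicate 1 less apart, such as *Pdgfra* (4.85 against 3.90 and 3.95 FPKM) and *Dcn* (6.83 against 6.18 and 7.53 FPKM). The part of fibroblasts in the *Cd9* level was not tested.

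*Cd53*, a tetraspanin of blood cells (ENSMUSG00000040747, chromosome 3, 106759921 to 106790149, minus strand), was at 343, 353 and 348 FPKM in control BMDMs and at 360.5, 373 and 371 FPKM in CITED2-deficient BMDMs. The gap between the groups was smaller than the range within the deficient group. The log2 fold change was 0.080 (SE 0.027, adjusted p = 0.0330, limma) and 0.18 after median-ratio scaling (adjusted p = 0.001). Its call was lost without control replicate 1 (adjusted p = 0.117), without control replicate 3 (0.0822), without CITED2-deficient replicate 2 (0.0861) and without CITED2-deficient replicate 3 (0.0849).

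*Cd151*, which binds laminin-receptor integrins (ENSMUSG00000025510, chromosome 7, 141467392 to 141471473, plus strand), was at 65.0, 71.8 and 67.1 FPKM in control BMDMs and at 68.2, 65.9 and 63.8 FPKM in CITED2-deficient BMDMs. It was the one gene of the 10 whose groups overlapped. The log2 fold change of -0.042 had a 95% interval of -0.14 to 0.061 (adjusted p = 0.468, limma), and the sign turned under median-ratio scaling (0.061, adjusted p = 0.328).

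**Figure D2:**
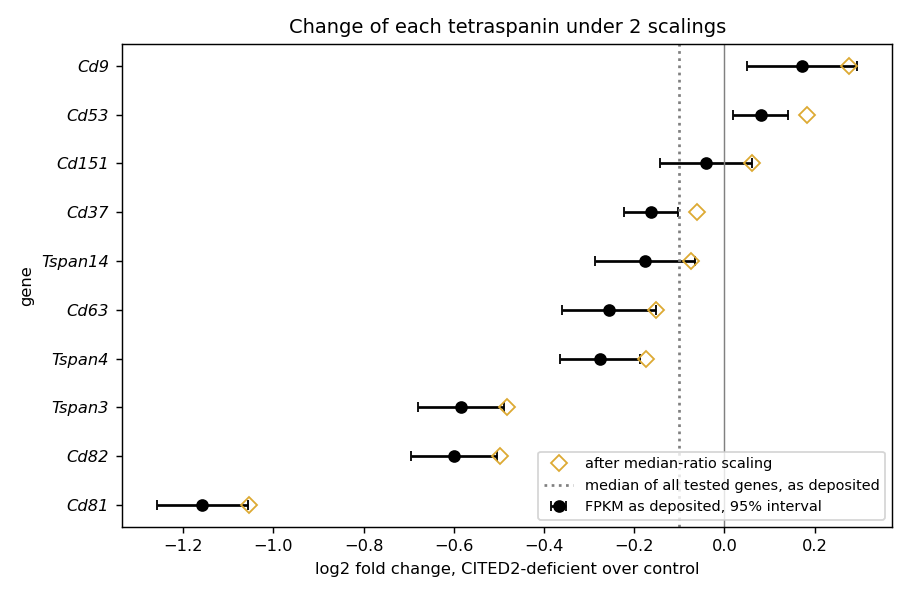
Log2 fold change (x axis, CITED2-deficient over control) of each tetraspanin (y axis), as black points with 95% intervals on the deposited FPKM and as open diamonds after median-ratio scaling. The dotted line is the median of all tested genes as deposited (-0.10); *Cd81*, *Cd82* and *Tspan3* lie far to its left under both scalings, and *Cd151* changes sign.

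The summed level of the 10 genes was lower in CITED2-deficient BMDMs, by an amount that depended on the scaling, and the shares of single genes in it differed. The summed level of the 10 genes was 1988, 2076 and 2026 FPKM in control BMDMs and 1792, 1714 and 1803 FPKM in CITED2-deficient BMDMs, a difference of -12.8%, which was -6.32% after median-ratio scaling. As a share of that sum within each library, which no scaling between libraries can move, *Cd81* went from 7.95% ± 0.363 to 4.05% ± 0.088, *Cd82* from 5.51% ± 0.392 to 4.14% ± 0.182 and *Tspan3* from 3.10% ± 0.057 to 2.35% ± 0.0090 (SD, n = 3 each). *Cd9* went from 10.8% ± 0.322 to 14.0% ± 0.697 and *Cd53* from 17.1% ± 0.122 to 20.8% ± 0.846. All 5 of these shares were without overlap between the groups. The share of *Cd151* was also higher (3.35% to 3.73%) and that of *Tspan4* lower (7.16% to 6.77%), whereas the shares of *Cd63*, *Cd37* and *Tspan14* overlapped. Shares of one sum are tied to each other, so a gene at a steady level gains share when others fall. The level of *Cd151* itself did not pass the test. An exact permutation test of 3 against 3 libraries cannot go below p = 0.1, so these shares carry no further test.

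**Figure D3:**
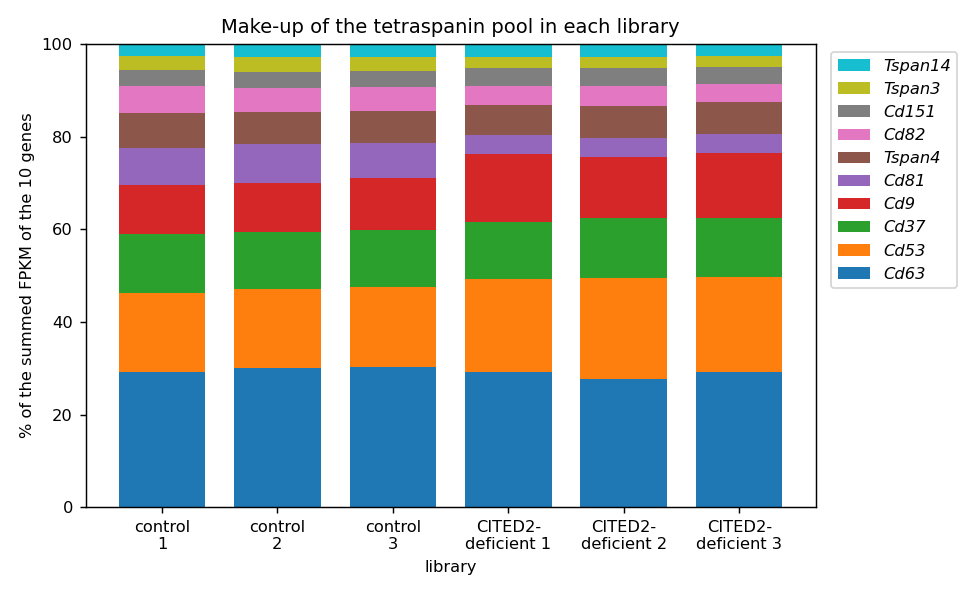
Share of each tetraspanin in the summed FPKM of the 10 genes (y axis, percent) in each of the 6 libraries (x axis), stacked from the most to the least abundant control gene. The *Cd81* layer shrinks from 7.54 to 8.24% in control to 3.95 to 4.12% in CITED2-deficient libraries, and the *Cd9* layer widens from 10.5 to 11.2% to 13.3 to 14.7%.

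Ratios between tetraspanins within a library, with pairs chosen after the single genes were seen, restate these changes on a scale that does not depend on the scaling between libraries. The ratio of *Cd9* to *Cd81* was 1.31, 1.31 and 1.48 in control BMDMs and 3.56, 3.25 and 3.57 in CITED2-deficient BMDMs, which is 2.54 times as high (exact permutation p = 0.1, two-sided, the smallest possible). *Cd82* to *Cd81* went from 0.693 ± 0.050 to 1.02 ± 0.043 and *Cd53* to *Cd37* from 1.39 ± 0.014 to 1.64 ± 0.027 (SD, n = 3 each). *Cd9* to *Cd63* went from 0.363 ± 0.0055 to 0.488 ± 0.012. In each of these ratios the groups did not overlap, and each permutation test gave the same smallest p.

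By level per mean transcript length, the order in control BMDMs ran *Cd63*, *Cd53*, *Cd37*, *Cd9*, *Cd81*, *Tspan4*, *Cd82*, *Cd151*, *Tspan3* and *Tspan14*. Only *Cd151* and *Tspan3* overlapped as neighbours. In CITED2-deficient BMDMs the order was *Cd63*, *Cd53*, *Cd9*, *Cd37*, *Tspan4*, *Cd82*, *Cd81*, *Cd151*, *Tspan14* and *Tspan3*, with overlap between *Cd9* and *Cd37* and between *Cd82* and *Cd81*. *Cd81* was in the fifth place in control BMDMs and shared the sixth and the seventh with *Cd82* in CITED2-deficient BMDMs, and per longest transcript it went from the fifth place to the sixth. Comparison between genes depends on the length used: per longest transcript, *Cd53* (348 FPKM) came before *Cd63* (255 FPKM) in control BMDMs.

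Several of the 10 genes have tetraspanin neighbours on chromosome 7. *Cd151* and *Tspan4* lie 3767 bases apart on the same strand, and the ratio of *Cd151* to *Tspan4* rose from 0.433, 0.497 and 0.476 in control BMDMs to 0.588, 0.558 and 0.510 in CITED2-deficient BMDMs, without overlap (exact permutation p = 0.1). *Cd81* lies 33.1 kb from *Tspan32*, a tetraspanin of blood cells and its nearest profile of the 17 candidates (root mean square difference 0.20). This was the widest nearest match of the 10 genes, the next being 0.092 for *Cd9*. The measure includes the difference between the groups, so it restates that both genes fell. Shared regulation was not tested. *Tspan32* was at 9.25 to 11.6 FPKM in control BMDMs and at 5.93, 5.50 and 5.80 FPKM in CITED2-deficient BMDMs, with a log2 fold change of -0.78 (SE 0.088, adjusted p = 8.79e-05, limma). Within 200 kb of *Cd81*, 3 other genes could be tested. Of these, *Tspan32* and *Tssc4* (-0.28, adjusted p = 0.0046, limma) fell and *Kcnq1* (0.15, adjusted p = 0.357) did not pass. Over all tested genes 34.6% fell, and this window was chosen after the values of *Cd81* and *Tspan32* were seen. Exons of *Cd81*, *Cd9*, *Tspan4*, *Cd37* and *Cd151* overlap a gene on the opposite strand by 13 to 292 bases, and the overlapping genes were listed at 0.025 to 6.92 FPKM.

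Outside the 10 genes, 19 other tetraspanins were listed, and the 10 held 92.1% of the family's summed level in control and 90.9% in CITED2-deficient BMDMs. Only 8 of the 19 passed the filter, of which 2 rose, 2 fell and 4 did not pass the test. That is close to the 51.3% of all tested genes that passed. *Tspan13* was at 11.7, 14.0 and 10.4 FPKM in control BMDMs and at 26.6, 27.9 and 23.1 FPKM in CITED2-deficient BMDMs, all deficient libraries being above all controls. Its log2 fold change of 1.05 (SE 0.10, adjusted p = 3.79e-05, limma) was about as large as that of *Cd81* in the other direction, and the ratio of *Tspan13* to *Cd81* rose 4.85 fold, from 0.074 ± 0.0070 to 0.361 ± 0.037 (SD, n = 3 each). *Tspan6* rose from 0.750, 0.478 and 0.561 FPKM to 2.09, 1.10 and 1.90 FPKM (0.74, SE 0.18, adjusted p = 0.0074), at levels that rest on few fragments. *Tspan31* was at 72.7 to 73.8 FPKM in control and 73.3 to 82.7 FPKM in CITED2-deficient BMDMs (0.088, adjusted p = 0.133), and passed after median-ratio scaling (0.19, adjusted p = 0.0099) and without CITED2-deficient replicate 1 (adjusted p = 0.0293).

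**Figure D4:**
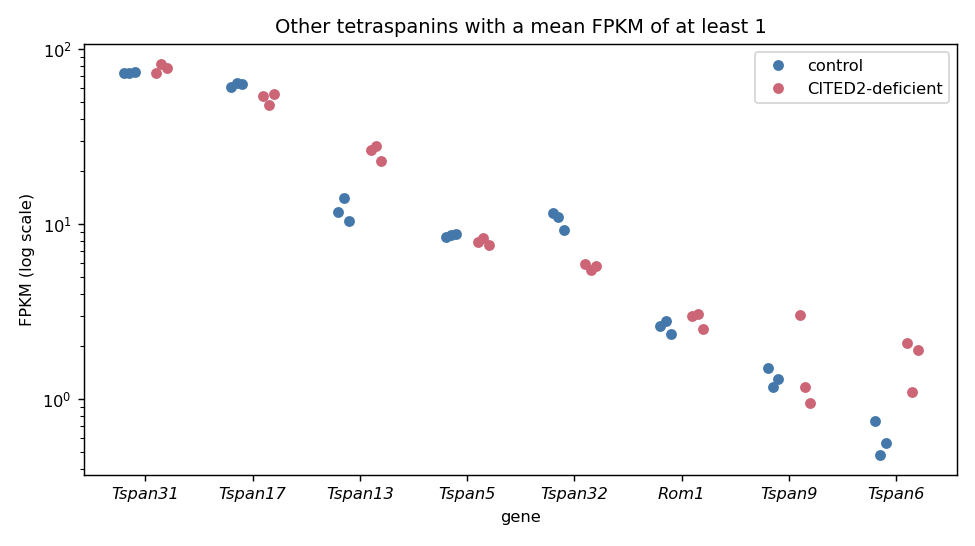
FPKM (y axis, log scale) of the 8 other tetraspanins with a mean of at least 1 FPKM (x axis), with a point for each control and CITED2-deficient library. *Tspan13* and *Tspan6* are higher and *Tspan32*, *Tspan17* and *Tspan5* lower in every deficient library than in every control, of which *Tspan5* did not pass the test.

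Of the 3 TspanC8 genes that could be tested, *Tspan14* and *Tspan17* fell as deposited, and *Tspan5* (7.64 to 8.83 FPKM over the 6 libraries, -0.10, adjusted p = 0.213, limma) and the client *Adam10* did not pass. After median-ratio scaling 0 of these 4 genes passed. Over all tested genes 34.6% fell as deposited, and 44.4% passed after median-ratio scaling, 21.3% as lower. *Tspan17* was at 60.6, 63.6 and 62.9 FPKM in control BMDMs and at 54.2, 47.8 and 55.4 FPKM in CITED2-deficient BMDMs (-0.25, SE 0.055, adjusted p = 0.0051, limma), and -0.15 after median-ratio scaling (adjusted p = 0.0576). *Adam10*, a protease that sheds surface proteins, was at 87.4, 86.4 and 87.3 FPKM in control BMDMs and at 85.7, 87.6 and 83.6 FPKM in CITED2-deficient BMDMs, with a 95% interval of -0.095 to 0.049 for its log2 fold change. The ratio of *Tspan14* to *Adam10* went from 0.641 ± 0.037 to 0.575 ± 0.026 (SD, n = 3 each) with a narrow gap between the groups (exact permutation p = 0.1).

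Of 19 genes for membrane proteins known to associate with tetraspanins, 17 were tested, and 11 rose, 5 fell and *Adam10* did not pass. Over all tested genes 16.7% rose and 34.6% fell. The same split of 11 and 5 was counted after median-ratio scaling, where 23.1% of all tested genes rose and 21.3% fell. *Igsf8*, the partner of CD81 and CD9, fell from 95.3, 99.2 and 99.4 FPKM to 72.2, 71.1 and 78.4 FPKM (-0.40, SE 0.043, adjusted p = 5.97e-05, limma). The fall of *Cd81* exceeded it, since the ratio of *Cd81* to *Igsf8* went from 1.65 ± 0.099 to 0.972 ± 0.057 without overlap. *Ptgfrn*, a related partner, rose at a low level of 1.88 to 3.32 FPKM (0.42, adjusted p = 0.0205), a call lost without CITED2-deficient replicate 1 (0.36, adjusted p = 0.0710), without CITED2-deficient replicate 2 (0.37, adjusted p = 0.0726) and without control replicate 2 (0.41, adjusted p = 0.0519).

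Among integrins, partners of CD151, CD9, CD81 and CD82, the fibronectin receptor subunit *Itga5* rose from 47.0, 49.3 and 48.3 FPKM to 96.5, 90.5 and 90.8 FPKM (0.93, SE 0.039, adjusted p = 1.15e-07, limma). Its partner chain *Itgb1* rose less (0.24), as did *Itga4* (0.37), *Itgb2* (0.14) and *Itga6* (0.12). The call of *Itga6* was lost without control replicate 1 (0.10, adjusted p = 0.0743) and without CITED2-deficient replicate 1 (0.11, adjusted p = 0.0600). The complement receptor subunit *Itgam*, in contrast, fell from 90.6, 89.4 and 89.0 FPKM to 49.2, 52.6 and 50.7 FPKM (-0.81, adjusted p = 1.77e-07).

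*Clec7a*, which encodes the CD37-associated receptor Dectin-1, rose from 188, 204 and 187 FPKM to 333, 340.1 and 316 FPKM (0.77, SE 0.042, adjusted p = 7.12e-07, limma), while *Cd37* did not rise under either scaling. The membrane protease *Mmp14* rose from 4.24 to 6.49 FPKM up to 16.0 to 21.6 FPKM (1.67). *Mmp14* is also among the genes that the study picked for display from these libraries, so its direction is not independent evidence. The protease *Adam17* (0.23), the hyaluronan receptor *Cd44* (0.28) and the adhesion molecule *Icam1* (0.35) rose as well. *Vcam1* (-0.85), the scavenger receptor *Cd36* (-0.30) and *H2-DMa* (-0.68), a peptide-loading chaperone found with CD82 and CD63, fell. *Mmp14* and several integrins are also expressed by fibroblasts, whose markers rose in the same libraries, and the part of such cells was not tested.

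Of 11 genes for vesicle formation and release, 9 were tested, with 1 that rose and 4 that fell, beside the 51.3% of all genes that passed. After median-ratio scaling 2 rose and 2 fell. *Sdcbp*, which encodes the CD63-binding adaptor syntenin, was at 847, 903 and 859 FPKM in control BMDMs and at 974, 1002 and 1009 FPKM in CITED2-deficient BMDMs (0.19, SE 0.031, adjusted p = 0.000772, limma), a rise where *Cd63* fell. The membrane scaffold *Flot1* fell from 79.2, 84.6 and 80.6 FPKM to 46.4, 47.6 and 49.7 FPKM (-0.75, adjusted p = 7.36e-07), and *Flot2* fell by 0.23 on the log2 scale. The ESCRT disassembly ATPases *Vps4a* (-0.21, adjusted p = 0.002) and *Vps4b* (-0.096, adjusted p = 0.0461) also passed as lower, but neither did after median-ratio scaling, where *Vps4b* turned to 0.0067. *Vps4b* also lost its call without control replicate 1 or 2 and without CITED2-deficient replicate 1 or 3, with adjusted p of 0.0844, 0.138, 0.0966 and 0.125. *Pdcd6ip* (-0.013), *Tsg101* (-0.011), *Rab27a* (-0.025) and *Stam* (0.065) did not pass. After median-ratio scaling *Stam* rose (0.16, adjusted p = 0.0393), and the other three were at positive values that did not pass (0.090, 0.091 and 0.052). *Hgs*, a gene of the same sorting machinery that most cells use, was listed at 0 to 0.158 FPKM, so a low listed value here does not show that a gene is silent.

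**Figure D5:**
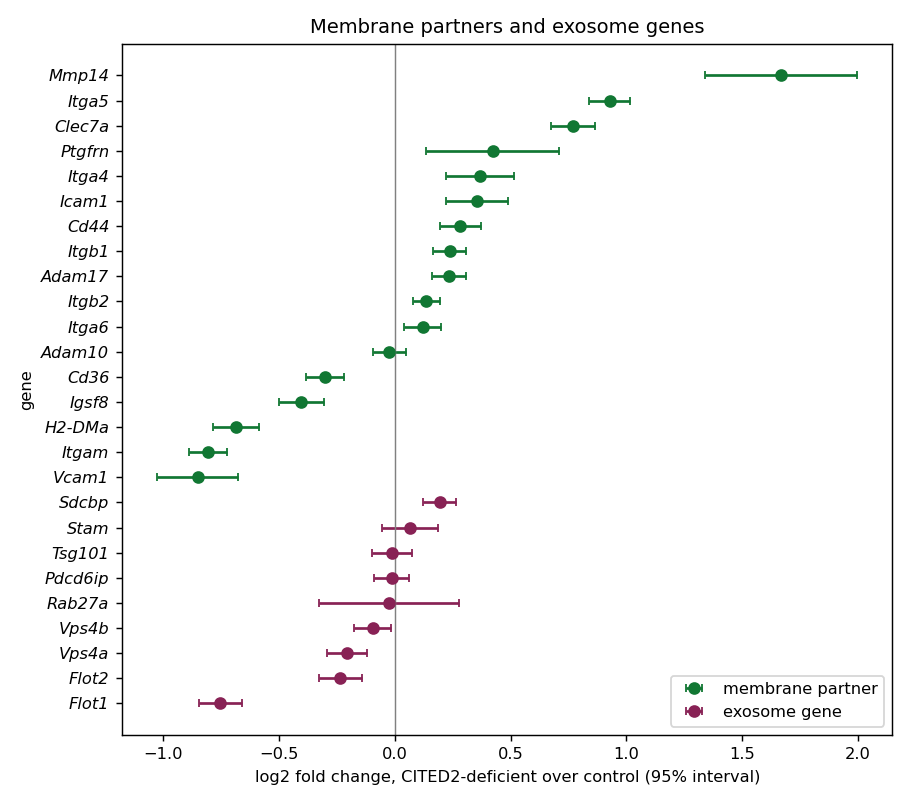
Log2 fold change (x axis, CITED2-deficient over control, with 95% intervals) of the 17 tested membrane partners in green and the 9 tested exosome genes in purple (y axis). *Mmp14*, *Itga5* and *Clec7a* stand at the high end, *Vcam1*, *Itgam* and *H2-DMa* at the low end of the partners, and *Flot1* at the low end of the exosome genes. Values after median-ratio scaling, where *Adam10*, *Pdcd6ip*, *Tsg101*, *Vps4b* and *Rab27a* change sign, are not drawn.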

How the data were processed

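The 10 genes and the gene lists were chosen with earlier results of these data known. The authors removed ribosomal RNA, prepared stranded libraries, mapped reads to mm10 with STAR and deposited Cuffdiff FPKM per gene and library with GENCODE annotation; the sources used here give neither tool versions nor the strand setting. FPKM are divided by length and depth, so strongly changed genes can shift the others.

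The test was limma 3.58.1 (R 4.3.3) on log2(FPKM + 1) for genes averaging at least 1 FPKM, using eBayes with a trend and adjusting p by Benjamini-Hochberg over all of them. Fold changes are on that scale. The named genes are the 10 tetraspanins, *Cited2* and, from the lists, genes past the threshold or with a mean FPKM of at least 10. *Tspan2*, *Tspan5*, *Tspan9*, *Tspan11*, *Rab27a*, *Hgs*, *Tssc4* and *Kcnq1* fall outside this rule and were chosen after their values were seen. Likeness of profiles was sought among tetraspanins with a mean FPKM of at least 1.

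Whole fragments, recovered from FPKM and the GENCODE vM21 mean transcript length within 0.02, came out for 21374 of 22239 matched genes (96.1%), all 10 tetraspanins included. Replicates differed by more than counting noise. The fit was tested on simulated data. Promoter windows were read from RefSeq tables, and all 10 genes had an entry.

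Alternatives were pseudocounts of 0.1 and 0.5, a filter at 5 FPKM or none, median-ratio scaling, quantile normalization, limma with no trend, a replicate block, array weights, limma-voom on the fragments, and fits that omit 1 library each. Levels per longest transcript, the 4 promoter motifs and the window around *Cd81* were chosen after seeing the data.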

Additional observations from a re-analysis of the deposited data

How the results depend on the processing

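*Cd63*, *Cd81*, *Cd82*, *Tspan3* and *Tspan4* kept their direction and their side of the threshold in all 16 alternatives, with *Cd81* at -1.20 to -1.05 and *Cd82* at -0.63 to -0.50. The number of the 10 tetraspanins that rose was 2, but it was 0 without a filter and without the variance trend, 1 with the replicate block and 0 to 2 when 1 library was left out. Under median-ratio scaling the number of genes that fell was 2490 of all tested genes, 1 other tetraspanin and 2 exosome genes, and 2 exosome genes rose. Without a filter 2 exosome genes rose, and with a mean FPKM of at least 5 only 1 other tetraspanin rose. Signs turned under median-ratio scaling for *Cd151* (0.061), *Adam10* (0.080), *Pdcd6ip* (0.090), *Tsg101* (0.091), *Rab27a* (0.052) and *Vps4b* (0.0067), and under quantile normalization for *Pdcd6ip* (0.0080), *Tsg101* (0.013) and *Rab27a* (0.017). They also turned without CITED2-deficient replicate 3 for *Pdcd6ip* (0.0096), *Tsg101* (0.0036) and *Rab27a* (0.033), without control replicate 3 for *Tsg101* (0.018) and without control replicate 1 for *Rab27a* (0.083). With 1 library left out, *Pdcd6ip* ranged from -0.040 to 0.0096 *Tsg101* from -0.032 to 0.018, *Rab27a* from -0.14 to 0.083 and *Tspan9* from -0.17 to 0.35. The change of the summed level of the 10 tetraspanins was -6.32% after median-ratio scaling, an alternative chosen after seeing the data. The cause was not tested.

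Deviations of same-numbered libraries correlated at 0.014, 0.0078 and 0.040, and those of differently numbered libraries at -0.052 to 0.035. These weak values gave no clear sign that replicate numbers pair the libraries, but they cannot exclude pairing. With the number as a replicate block, *Cd53* had an adjusted p of 0.0511 and 1895 genes rose and 3813 fell. Depth did not limit the 10 genes, each with at least 1202 fragments, but 11 of the other tetraspanins were below the filter. RNA levels were measured, not surface protein.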

Other observations

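*Tspan11*, which was below the filter, was listed at 0.344 FPKM (25 fragments) in CITED2-deficient replicate 1. It was at 0.015 to 0.037 FPKM (1 to 2 fragments) in the other libraries. *Tspan9* was at 3.04 FPKM in the same library and at 0.951 to 1.51 FPKM in the other 5. Its log2 fold change of 0.15 (adjusted p = 0.642, limma) turned to -0.17 without that library. CITED2-deficient replicate 1 also had the highest fibroblast marker sum, mostly *Col1a1* and *Col1a2*. The part of fibroblasts in these values was not tested. *Tspan2*, below the filter as well, was listed at 0.548 to 1.13 FPKM in control and 0.243 to 0.673 FPKM in CITED2-deficient BMDMs.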
